A study of Mus musculus with 6 samples.

Results

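Tight junctions are the outermost seal between epithelial cells. Claudins are the transmembrane proteins that polymerise into the junction strands and set which ions pass between cells, occludin and tricellulin (Marveld2) are strand proteins of the MARVEL family, and the zonula occludens proteins, among them Tjp1, and cingulin (Cgn) tie the strands to actin on the cytoplasmic side. Simple keratins are the intermediate filaments of single-layered epithelia and assemble as pairs of a type II chain (Krt7 or Krt8) with a type I chain (Krt18, Krt19 or Krt20). In mouse embryos the neural plate starts as an epithelium with tight junctions, and the neuroepithelium is known to lose occludin at neural tube closure while keeping Tjp1.

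The genes described here were taken by symbol from the RNA-seq table: every claudin symbol of the form Cldn plus a number, genes of zonula occludens proteins, Ocln, Marveld2, Cgn, F11r, Epcam, Krt7, Krt8, Krt18, Krt19 and Krt20. They came to 38 of 24002 genes, of which 25 were claudin symbols and 5 keratins. The samples were R1 cells, an embryonic stem cell line of mouse, kept with LIF (1000 U/ml) and 15% Knockout Serum Replacement, aggregated for 48 h in hanging drops and then given retinoic acid, labelled as 0.5 mM, up to day 6. All 6 samples had this treatment, 3 for RNA-seq of polyadenylated RNA and 3 for ATAC-seq, and no untreated or earlier sample was analysed here, so each value is a level at day 6 and not a change. The labels do not name separate cultures for the replicates, and their spread may thus be only technical. Levels are taken as FPKM, a unit inferred from the named tool and the form of the values. By definition FPKM are fragment counts scaled to transcript length and to all mapped fragments of the library. They can be set beside each other across genes because they are divided by length. Any further scaling between libraries is not known.

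FPKM summed to between 477760 and 524717 per library. No read totals were at hand. From the spacing of low values, replicate 1 was 1.56-fold deeper than replicate 2 and 1.17-fold deeper than replicate 3. A low value in replicate 2 therefore rests on fewer reads. In bulk RNA, fewer cells of a type and less RNA per cell cannot be told apart.

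In these cultures a short set of simple epithelial genes was well expressed, and most claudins were not. A gene is called expressed here where it had at least 1 FPKM in every replicate. By that rule 17 of the 38 members were expressed (44.7%), beside 50.7% of all 24002 genes, a share near that of the table as a whole. Among genes above 0 in at least 1 replicate, 17 of 34 members were expressed, beside 66.0% of such genes. Against that background the share of the members was lower. The median level of the 38 members was 1.08 FPKM, beside 1.31 FPKM over all genes. At the upper end, 9 members (23.7%) averaged 10 FPKM or more, beside 25.5% of all genes. At the lower end, 4 members were listed at 0 in every replicate and 3 were listed at 0 in some replicates. In the order of all 24002 genes by mean FPKM, those at 0 in every replicate began at rank 18436, so such genes were common in the table. Genes at 0 in only some replicates were not counted over the table. An FPKM of 0 can be a failed estimate, so these are only said to be listed at 0.

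**Figure D1:**
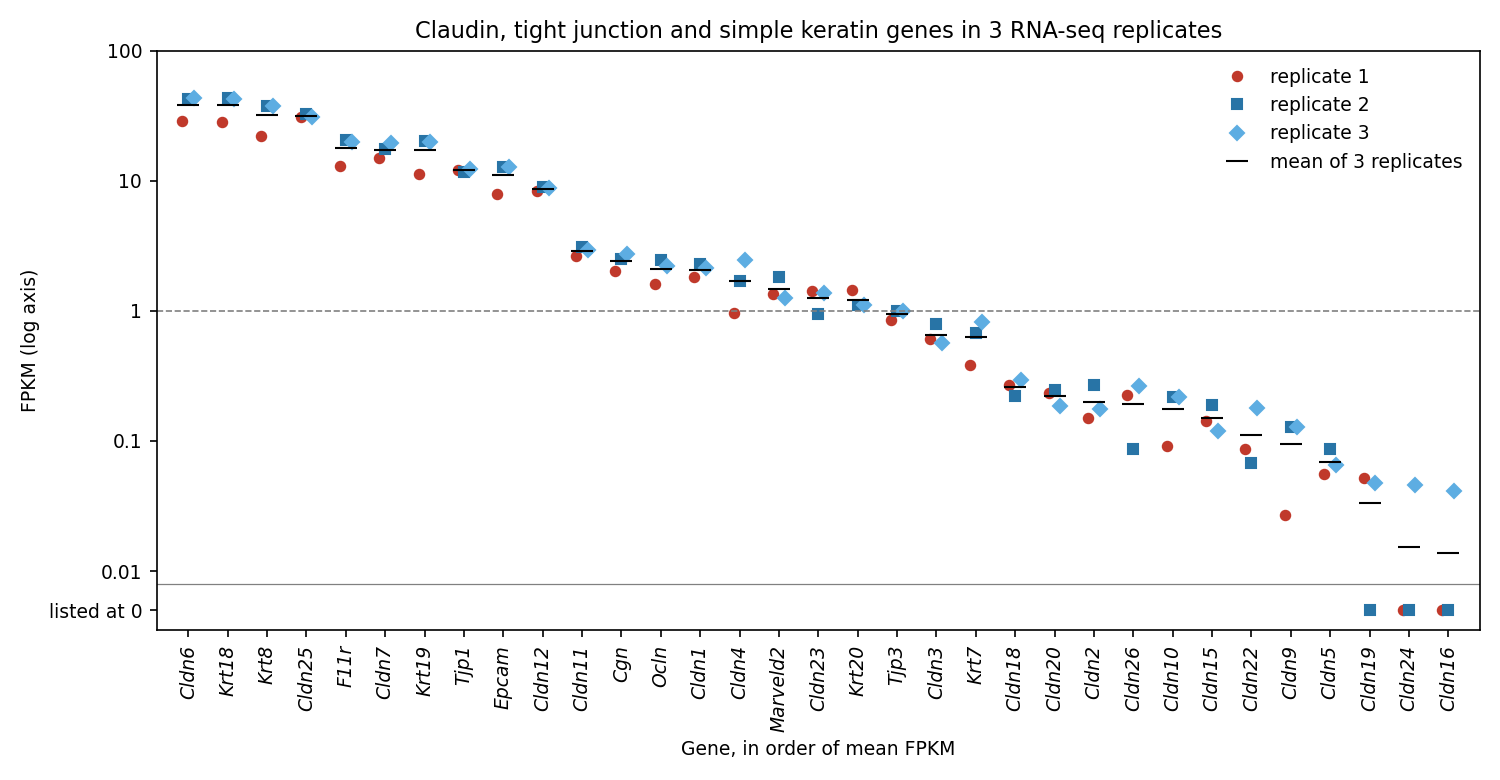
FPKM (log axis) of members that were above 0 in at least 1 replicate, in order of the mean, with a point per RNA-seq replicate and a bar at the mean of 3 replicates; the dashed line is 1 FPKM and the lowest band holds values listed at 0. Cldn6, Krt18, Krt8 and Cldn25 lead at 31.5 to 38.2 FPKM on average, and replicate 1 lies below both others for most members above 1 FPKM.

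Among claudins, Cldn6, a claudin of embryonic epithelia, had the highest level. It stood at 28.8, 42.7 and 43.0 FPKM in replicates 1, 2 and 3, a mean of 38.2 ± 8.11 FPKM (SD, n = 3) that ranked 1599 among the 24002 genes. Replicate 1 was low and the other replicates were nearly equal. Cldn7, a basolateral and junctional claudin of many epithelia, stood at 14.9, 17.5 and 19.5 FPKM (mean 17.3 ± 2.28). Cldn12, a claudin that lacks the usual tail for binding zonula occludens proteins, stood at 8.42, 8.93 and 8.73 FPKM (mean 8.69 ± 0.258), with little spread.

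The symbol Cldn25 came second in the family with 31.0, 32.8 and 30.8 FPKM (mean 31.5 ± 1.08), but its identity is uncertain. RefSeq lists Cldn25 as an older name of 2 genes, Cldn25-ps, named as a claudin pseudogene, and the claudin domain gene Cldnd1, and neither current symbol is in the table. Which of these genes the values belong to is not known. Cldn26 (0.191 ± 0.0923 FPKM) is likewise an older name of Tmem114. The other 36 symbols are current RefSeq symbols. The count of expressed members, the claudin shares and the main counts by replicate are given below without these symbols too.

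The lower claudins formed 3 bands. Between 1 and 3 FPKM on average were Cldn11, the claudin of myelin and Sertoli cell junctions (2.89 ± 0.241), Cldn1, the barrier claudin of epidermis (2.07 ± 0.239), Cldn4 (1.70 ± 0.744) and Cldn23 (1.25 ± 0.262). Cldn4 stood at 0.957, 1.69 and 2.44 FPKM, the widest relative spread among members above 1 FPKM, and it missed the expressed call through replicate 1. Cldn23 stood at 1.42, 0.949 and 1.38 FPKM and missed the call through replicate 2. Cldn3, a sealing claudin of many epithelia, stood alone between the bands at 0.656 ± 0.125 FPKM.

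Below 0.3 FPKM were 12 claudins detected in at least 1 replicate, among them several that mark mature organs. Cldn18, known from stomach and lung, stood at 0.261 ± 0.0369 FPKM, the pore-forming Cldn2 of kidney and gut at 0.199 ± 0.0631, and Cldn5, the barrier claudin of brain endothelium, at 0.0692 ± 0.0159. Cldn20 stood at 0.221 ± 0.0318 FPKM, Cldn10 at 0.175 ± 0.0719 and Cldn15 at 0.150 ± 0.0360. Cldn16 and Cldn19, partners in the thick ascending limb of the kidney, were at or below 0.0516 FPKM in every replicate, and each was listed at 0 in at least 1 replicate. The claudins listed at 0 in every replicate were Cldn8, Cldn13, Cldn14 and Cldn17. In all, 6 of 25 claudin symbols were expressed, Cldn6, Cldn25, Cldn7, Cldn12, Cldn11 and Cldn1, beside 50.7% of all genes. Without Cldn25 and Cldn26 the expressed members were 16 of 36, beside the same 50.7%.

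Claudin RNA was thus concentrated in few genes. The summed FPKM of the claudins was 91.9, 112 and 113 in replicates 1, 2 and 3. Cldn6 made up 31.3%, 38.1% and 38.0% of this sum, and Cldn7 made up 16.2%, 15.6% and 17.2%. Cldn6, Cldn25, Cldn7 and Cldn12 together held 90.5%, 90.8% and 90.1%. Without Cldn25 and Cldn26 the Cldn6 share averaged 51.2% ± 3.32 and that of Cldn7 23.4% ± 1.30 (SD, n = 3). In either count the Cldn6 share was lowest in replicate 1.

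**Figure D2:**
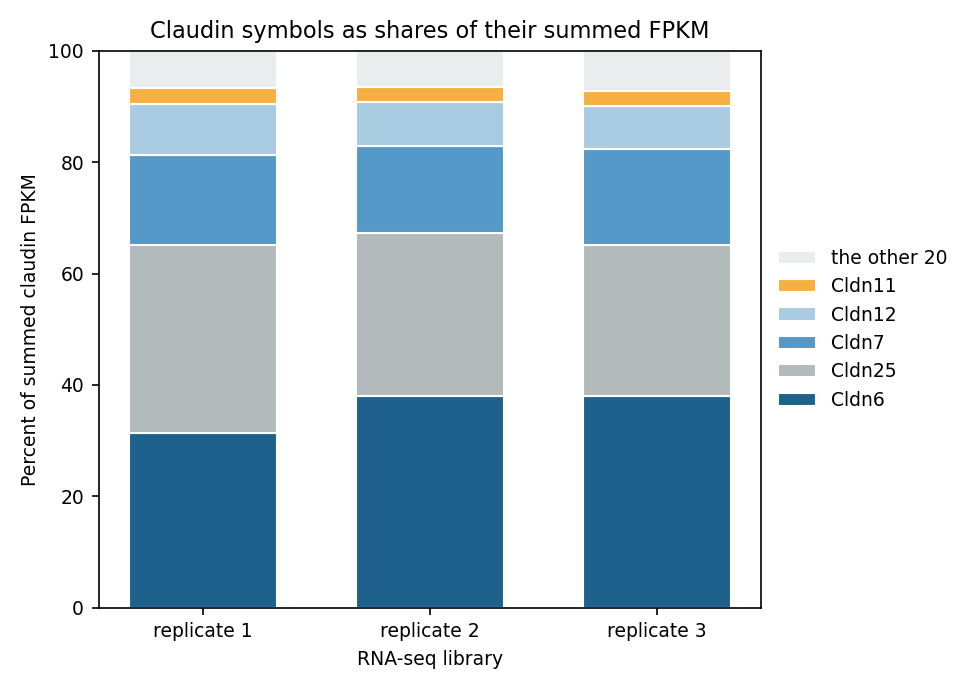
Percent of the summed FPKM of the 25 claudin symbols (vertical axis, from 0) in each of the 3 RNA-seq replicates. Cldn6, Cldn25, Cldn7 and Cldn12 hold 90.1% to 90.8% of the sum, and Cldn6 has its smallest share, 31.3%, in replicate 1.

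Neighbouring claudin genes were far apart in level in some pairs and alike in others. By the order of protein-coding genes in RefSeq (GRCm38.p6), 7 pairs of members are direct neighbours. Cldn6 lies next to Cldn9, which stood at 0.0272, 0.127 and 0.128 FPKM, far under the level of Cldn6 in each replicate. Cldn1 (2.07 FPKM) lies next to Cldn16 (0.0137 FPKM), and Cldn4 (1.70 FPKM) next to Cldn3 (0.656 FPKM). Krt8 and Krt18 are neighbours too and had close levels, as did Ocln and Marveld2. The pairs Cldn17 with Cldn8 and Cldn24 with Cldn22 were all at or near 0.

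The other membrane proteins were led by F11r and Epcam. F11r, the junctional adhesion molecule JAM-A, stood at 12.9, 20.8 and 19.8 FPKM (mean 17.8 ± 4.28). Epcam, an epithelial adhesion protein that binds and stabilises claudin-7, stood at 7.86, 12.7 and 12.8 FPKM (mean 11.1 ± 2.83). In both genes replicate 1 was low and replicates 2 and 3 were close. Ocln stood at 1.62, 2.48 and 2.20 FPKM (mean 2.10 ± 0.436). Marveld2, the protein of tricellular corners, stood at 1.34, 1.82 and 1.26 FPKM (mean 1.47 ± 0.299), with its highest value in replicate 2. Ocln and Marveld2 were thus expressed, at levels well under that of Cldn6. Marveld3, the other tight junction protein of the MARVEL family and not among the members, stood at 0.709, 0.566 and 0.821 FPKM and was not called expressed.

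Of the plaque proteins described here, Tjp1 was the highest and the most even. It stood at 12.1, 11.8 and 12.4 FPKM (mean 12.1 ± 0.296), a coefficient of variation of 2.45%, beside 21.2% for Cldn6. Cgn, an epithelial plaque protein, stood at 2.03, 2.49 and 2.73 FPKM (mean 2.42 ± 0.358). Tjp3, which is known from epithelia more than from other tissues, stood at 0.845, 0.989 and 1.01 FPKM (mean 0.946 ± 0.0884) and was not called expressed.

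Among the keratins, the pair Krt8 and Krt18 led, Krt19 followed, and Krt7 and Krt20 were low. Krt18 stood at 28.2, 43.6 and 42.4 FPKM (mean 38.1 ± 8.58), and its partner Krt8 at 22.0, 37.3 and 37.6 FPKM (mean 32.3 ± 8.92). Krt19 stood at 11.3, 20.3 and 19.7 FPKM (mean 17.1 ± 5.02). All of these were lowest in replicate 1. Krt20, known from intestinal epithelium, stood at 1.44, 1.11 and 1.11 FPKM and was highest in replicate 1. Krt7, known from glandular and ductal epithelia, stood at 0.386, 0.678 and 0.823 FPKM.

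Krt18, Krt8 and Krt19 held similar shares of the keratin sum in each replicate while that sum varied, and Krt20 did not. The summed FPKM of the 5 keratins was 63.3, 103 and 102 in replicates 1, 2 and 3. Krt18 held 44.5%, 42.3% and 41.7% of it, Krt8 held 34.8%, 36.2% and 37.0%, and Krt19 held 17.9%, 19.7% and 19.4%. Krt20 held 2.28%, 1.08% and 1.09%. The ratio of type I to type II keratin FPKM was 1.83, 1.71 and 1.65. A Krt8 pseudogene is annotated in RefSeq, and no source used here gives how reads shared with such copies were counted.

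Over the order of means, few neighbouring levels were set apart by the ranges of their replicates. Among the 19 members that averaged 1 FPKM or more there are 18 steps from a gene to the next lower one, and at 3 of these the ranges of the replicates did not overlap. They included the steps below Cldn25 and below Cldn12. The ranges of Cldn6, Krt18, Krt8 and Cldn25 overlapped each other, and so did those of F11r, Cldn7 and Krt19. Ranges leave out that values of 1 library go together. Within each library Krt18 stood above Krt8, with ratios of 1.28, 1.17 and 1.13, Cldn6 stood above Krt8, and F11r stood above Krt19.

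The spread itself had a pattern. Of the 19 members averaging 1 FPKM or more, 14 (73.7%) had their lowest value in replicate 1, beside 36.5% of all 12432 such genes. By a stricter rule added after the values were seen, replicate 1 below 0.8 times the lower of the others, 8 members were low (42.1%), beside 3.87% of the genes. These were Krt8, Krt18, Krt19, Cldn6, Cldn4, F11r, Epcam and Ocln. Replicate 2 was the lowest for 2 members (32% of the genes) and replicate 3 for 3 (31.3%). Of the 15 members that were above 0 in a replicate and averaged under 1 FPKM, 6 were lowest in replicate 1, beside 30.1% of such genes. Without Cldn25 the count at 1 FPKM or more was 14 of 18. Replicate 1 was singled out because it was already known to differ in these data. The members and the gene lists below were also chosen with earlier results of these data known, so these counts are description only. The libraries are replicates of 1 condition, and no test was made.

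The size of the difference varied among members. As the ratio of replicate 1 to the mean of replicates 2 and 3, Krt19 stood at 0.566, Krt8 at 0.588, Epcam at 0.616, F11r at 0.637, Krt18 at 0.655 and Cldn6 at 0.672. Of the 12432 genes averaging 1 FPKM or more, 0.515% had a lower ratio than Krt19 and 1.79% a lower ratio than Cldn6. Cldn7 stood at 0.807, Cldn12 at 0.953, Cldn25 at 0.976 and Tjp1 at 1.00. The median over the members was 0.807 and that over all genes 1.00. On the log2(FPKM + 1) scale, which understates differences of low genes, the median deviation of the members from their own means was -0.17, 0.08 and 0.09 in replicates 1, 2 and 3, beside 0.00 in each replicate over all genes. In replicate 1 it was -0.18 without Cldn25, and -0.07 over all 34 members above 0 in a replicate.

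Among the 6116 genes averaging 10 FPKM or more, where few reads are less of a limit, the middle of the distribution was narrow. Their ratio had a median of 1.01, a 5th percentile of 0.868 and a 95th percentile of 1.10. Of the 9 members at that level, 7 lay below the 5th percentile, all but Tjp1 and Cldn25. Replicates 2 and 3 stayed close in these 9 members, with a ratio of replicate 3 to replicate 2 between 0.940 and 1.11. By the estimate above replicate 1 was the deepest of the 3 libraries, and the part of depth in these ratios was not tested.

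**Figure D3:**
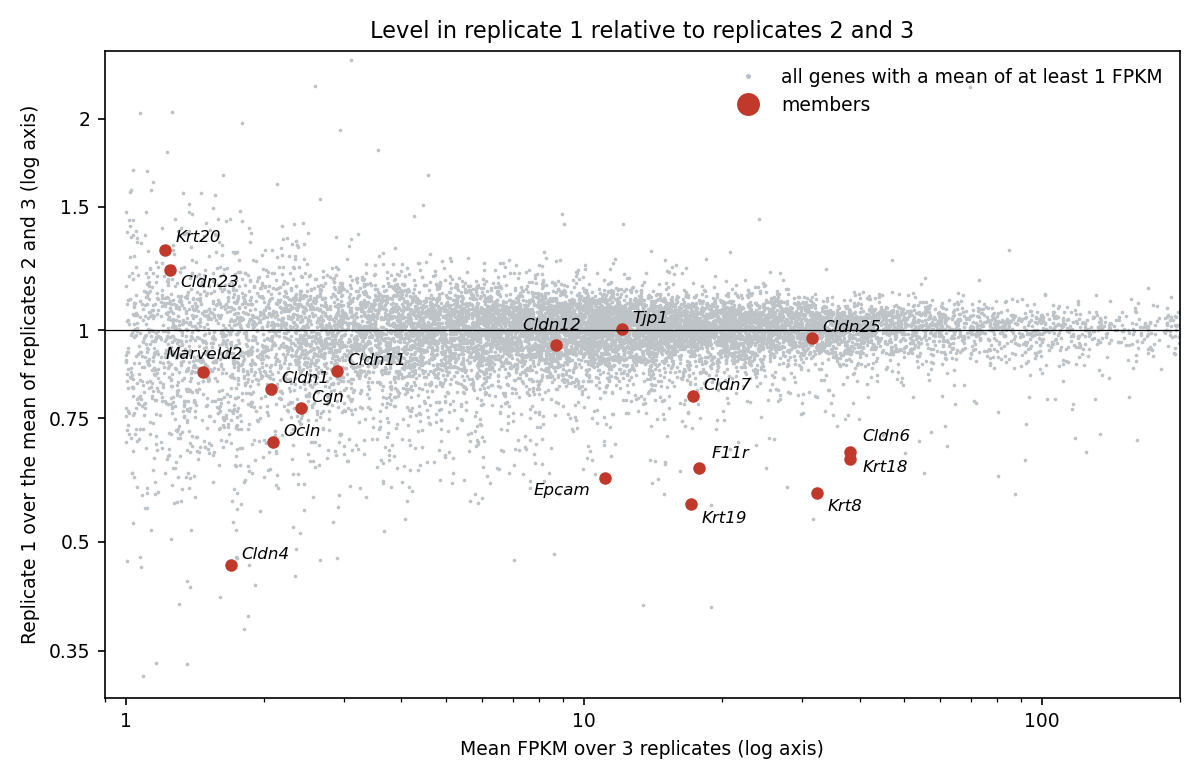
Ratio of replicate 1 to the mean of replicates 2 and 3 (log axis) against mean FPKM (log axis, drawn from 1 to 200), with a grey point per gene averaging 1 FPKM or more and the labelled members in red; genes beyond the axes are not drawn. Krt19, Krt8, Epcam, F11r, Krt18 and Cldn6 lie between 0.566 and 0.672, under most of the grey points, while Tjp1, Cldn25 and Cldn12 lie between 0.953 and 1.00.

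The upstream sequences of some of the highest members are shown here because their RNA was low together in replicate 1, with that of Tjp1, which was even, for contrast. They were picked after values were seen. Cldn7, also lowest in replicate 1, is not printed, and Krt19 had no promoter window. Each sequence is the 250 bases before the RefSeq start, 5′ to 3′ on the strand of the gene, in GRCm38.p6. The files' own build is mm9, and the 2 builds were not joined. Capitals mark matches on either strand to the searched letters: the GC box GGGCGG, the E-box CAGGTG that Snail and Zeb repressors bind, the GATA site AGATAA, the AP-1 site TGANTCA, the TATA box TATAAA, the Ets site CCGGAAG and the Grainyhead-like site AACCNGTT. No marked matches overlap in these windows. The coordinates are chr15:102004343-102004592 (minus strand) for Krt8, chr15:102027966-102028215 (plus) for Krt18, chr17:23679115-23679364 (plus) for Cldn6, chr17:87635729-87635978 (plus) for Epcam, chr1:171437311-171437560 (plus) for F11r and chr7:65371245-65371494 (minus) for Tjp1.
Krt8: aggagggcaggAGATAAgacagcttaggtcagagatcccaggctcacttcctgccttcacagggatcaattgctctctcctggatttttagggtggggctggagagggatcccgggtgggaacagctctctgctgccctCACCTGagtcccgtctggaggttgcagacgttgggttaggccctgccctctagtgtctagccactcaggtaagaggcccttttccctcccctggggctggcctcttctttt
Krt18: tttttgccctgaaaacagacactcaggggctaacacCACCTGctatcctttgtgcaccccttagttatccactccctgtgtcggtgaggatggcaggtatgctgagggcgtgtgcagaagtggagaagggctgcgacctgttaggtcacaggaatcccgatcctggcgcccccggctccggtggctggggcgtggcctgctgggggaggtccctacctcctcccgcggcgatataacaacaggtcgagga
Cldn6: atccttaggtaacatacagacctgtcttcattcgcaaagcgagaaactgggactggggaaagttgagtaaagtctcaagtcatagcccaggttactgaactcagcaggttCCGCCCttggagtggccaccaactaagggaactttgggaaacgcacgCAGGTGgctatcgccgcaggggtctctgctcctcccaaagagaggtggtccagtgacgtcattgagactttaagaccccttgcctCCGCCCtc
Epcam: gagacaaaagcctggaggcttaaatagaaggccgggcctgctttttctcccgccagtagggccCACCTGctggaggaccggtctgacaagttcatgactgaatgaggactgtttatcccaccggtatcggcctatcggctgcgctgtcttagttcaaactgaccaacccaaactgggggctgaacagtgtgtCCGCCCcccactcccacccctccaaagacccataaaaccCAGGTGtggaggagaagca
F11r: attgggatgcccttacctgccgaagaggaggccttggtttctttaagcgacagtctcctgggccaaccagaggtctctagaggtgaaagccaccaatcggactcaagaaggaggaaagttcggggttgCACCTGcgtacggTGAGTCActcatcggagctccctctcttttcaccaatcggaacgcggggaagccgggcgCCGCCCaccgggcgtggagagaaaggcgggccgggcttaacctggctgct
Tjp1: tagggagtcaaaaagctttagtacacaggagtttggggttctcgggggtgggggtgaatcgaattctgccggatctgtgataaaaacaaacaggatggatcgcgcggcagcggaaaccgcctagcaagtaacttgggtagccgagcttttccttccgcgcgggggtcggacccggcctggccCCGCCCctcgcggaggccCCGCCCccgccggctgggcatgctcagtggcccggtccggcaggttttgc

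An E-box of the letters CAGGTG was found upstream of Krt8, Krt18, Cldn6, Epcam and F11r, and not in the window of Tjp1. Of 30 members with a promoter in the RefSeq table, 11 held it at a start, beside 17.2% of all 32851 promoter windows of this length. It was found in 6 of the 7 members that had a window and averaged 10 FPKM or more, and in 5 of the other 23. Cldn7 is among the 6 only through a later start, as the window of its first listed start held none. Genes with several annotated starts had more windows in which to match, and the 17.2% is a share of windows and not of genes. The motifs were chosen after values were seen, so this split by level is description only. GC boxes were found in 17 of the 30 members (32.7% of all windows), and the Grainyhead-like site in Cgn and Cldn5 (1.79% of all windows). The GATA site was found in 5 of the 30 members, Krt8, Krt20, Cldn10, Cldn18 and Tjp3 (9.99% of all windows). The AP-1 site was found in 3, F11r, Cldn4 and Cldn15 (6.75% of all windows). Matches are letters in these windows and were not tested as binding sites.

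Other tight junction genes were expressed beside the members, with their own balance between epithelial and general proteins. Of 12 further membrane proteins, 7 were expressed, led by Cxadr (42.0 ± 1.76 FPKM), the receptor of coxsackieviruses and adenoviruses, Clmp (16.7 ± 1.36), Jam3 (14.6 ± 1.08) and Lsr (8.14 ± 1.32), the tricellular protein angulin-1. Of these 7, Lsr alone was lowest in replicate 1, with a ratio of 0.756, and the others stood between 1.01 and 1.12. All 16 further cytoplasmic proteins were expressed, led by Amotl2 (42.8 ± 2.08) and Ybx3 (38.7 ± 1.14), and 11 were lowest in replicate 1, with a list median ratio of 0.967. The ratios of these 11 were uneven, from 0.701 (Inadl) and 0.727 (Rab13) to 0.974 (Magi3) and 0.977 (Amot). Of the 198 distinct genes of the 17 lists, none is a member.

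Apical polarity and adherens junction genes were expressed throughout and mostly even. All 18 polarity genes were expressed, with a list median of 11.3 FPKM, led by Lin7c (59.5 ± 2.62), and 6 were lowest in replicate 1. The largest deviations in the list were those of Llgl2 (ratio 0.638) and Crb3 (0.704), which are the epithelial members of their families. All 14 adherens junction genes were expressed, led by Ctnnb1 (199 ± 3.53) and N-cadherin, Cdh2 (64.1 ± 2.51). E-cadherin, Cdh1, stood at 6.47, 9.31 and 9.72 FPKM, a ratio of 0.680, while Cdh2 stood at 67.0, 62.3 and 63.1 FPKM, a ratio of 1.07.

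Keratin partners and other filaments placed the simple keratins beside much higher neural filaments. Of 10 desmosome plaque and linker genes, 6 were expressed, led by Pkp4 (12.9 ± 0.361) and Jup (11.8 ± 0.962). Of these 6, 4 were lowest in replicate 1, with a median ratio of 0.892. Dsp, desmoplakin, stood at 1.71 ± 0.295 FPKM and Pkp1 was listed at 0. Of 11 keratins of stratified epithelia, Krt10 (3.10 ± 0.356) alone was expressed, and Krt6b, Krt14 and Krt16 were listed at 0 in every replicate. Of 13 other intermediate filament genes, 12 were expressed, led by Nefl (416 ± 11.3), Ina (376 ± 12.1), Nefm (345 ± 8.51) and Vim (262 ± 4.85), and only Lmna among those above 1 FPKM was lowest in replicate 1.

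A list of 18 epithelial regulators and effectors mixed transcription and splicing factors with surface proteases, their inhibitors and trafficking proteins. Of the 18, 8 were expressed, and all 8 were lowest in replicate 1, with a median ratio of 0.665. Among these 8, Klf4, Klf5 and the Ets factor Elf3 (3.91, 6.74 and 7.03 FPKM) are transcription factors. The rest were the protease inhibitors Spint2 (61.4 ± 10.5 FPKM, the highest of the list) and Spint1, the proteases St14 and Prss8, and the sorting adaptor subunit Ap1m2. The factors Grhl2 (0.541 ± 0.121), Ovol2 (0.635 ± 0.0101) and Esrp1 (0.637 ± 0.197) were below 1 FPKM. Of 6 mesenchymal repressors, 3 were expressed, Zeb1 (16.5 ± 0.888), Zeb2 (5.55 ± 0.189) and Snai1 (4.11 ± 1.19). Snai1 stood at 2.74, 4.88 and 4.70 FPKM, low in replicate 1, while Zeb1 and Zeb2 were even.

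Markers of other cell types moved with the epithelial members to different extents. All 19 extraembryonic endoderm genes were expressed and 18 were lowest in replicate 1, with a median ratio of 0.720 and a summed FPKM of 549, 755 and 761 in replicates 1, 2 and 3. Afp was the exception. The sum of this list was led by Sparc (269 ± 35.6 FPKM), Col4a1 (125 ± 26.6) and Col4a2 (91.7 ± 20.7), while the list median was 7.09 FPKM. Gata4 stood at 14.3 ± 3.30 FPKM, Sox17 at 7.22 ± 1.52 and Hnf4a at 1.84 ± 0.269. All 10 neuronal genes were expressed and none was lowest in replicate 1, with a summed FPKM of 2968, 2847 and 2824. Of 10 neural progenitor genes 1, Hes5, was lowest in replicate 1, with a summed FPKM of 1425, 1394 and 1384. The part of each cell type in the levels of the members was not tested.

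Most markers of surface ectoderm, trophoblast and endothelium were near 0, and most of the oligodendrocyte lineage were not. No surface ectoderm gene of 10 was expressed, with a summed FPKM of 1.43 to 1.98, and Krt14 was listed at 0. Of 10 trophoblast genes Gata3 (7.76 ± 0.0816) alone was expressed, and Elf5 and Tfap2c stood at 0.0576 and 0.0527 FPKM. Of 10 endothelial genes, Egfl7 and Flt1 were expressed, both lowest in replicate 1 with ratios of 0.840 and 0.651. Pecam1 (0.0700), Tek (0.0688) and Tie1 (0.00698) were near 0, beside Cldn5 at 0.0692 FPKM. Of 10 oligodendrocyte lineage genes, 8 were expressed, led by Olig2 (33.5 ± 1.18) and Sox10 (21.1 ± 1.21), while Mog (0.867) and Mag (0.0742) were not. Of the 8 expressed, 6 were lowest in replicate 1, with a median ratio of 0.957. Pdgfra stood apart at 7.79, 11.4 and 11.7 FPKM, a ratio of 0.674. The ratios of the other expressed genes lay between 0.909 (Sox10) and 1.01 (Cnp). The list had a median of 14.4 FPKM and a summed FPKM of 130, 141 and 137, beside Cldn11, which stood at 2.64, 3.12 and 2.91 FPKM. Of 10 genes of pluripotent cells, 3 were expressed, Dppa5a (15.6 ± 2.48), Esrrb (6.17 ± 0.222) and Zfp42 (2.14 ± 0.542). Pou5f1 (0.815) and Nanog (0.0879) were below 1 FPKM. The summed FPKM of the list was 24.4, 24.2 and 28.8.

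**Figure D4:**
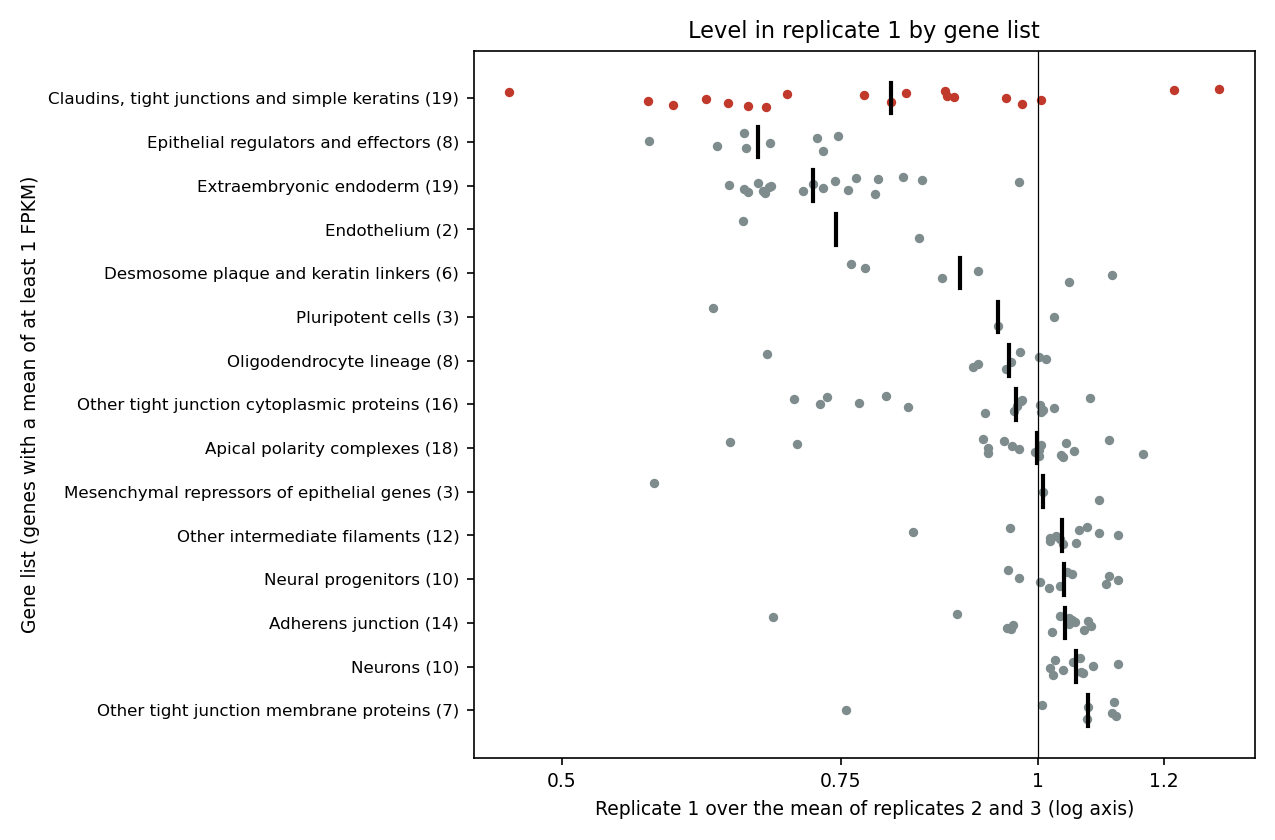
Ratio of replicate 1 to the mean of replicates 2 and 3 (log axis) for each gene averaging 1 FPKM or more, by gene list, with the number of such genes in brackets and a bar at the list median; lists with fewer than 2 such genes are not drawn. The medians are 0.807 for the members, 0.665 for epithelial regulators and effectors, 0.720 for extraembryonic endoderm and 1.06 for neurons.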

How the data were processed

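RNA-seq of polyadenylated RNA gave 3 samples and ATAC-seq 3, grouped by their titles, which also number the replicates. Per the submitters' processing notes, Bowtie, Cufflinks and build mm9 were used; no source used here gives versions, settings, annotation, strand use or any scaling between libraries. The header of the deposited RNA-seq table is silent on the unit, and FPKM by the authors was inferred from the named tool and the form of the values. The joint set of accessible regions was not used here, since no gene annotation of its build was at hand.

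Means, SDs, shares, ratios and log2(FPKM + 1) deviations over 3 replicates were computed with Python 3.11.15 and pandas 2.3.3. With 1 condition no test was made. The values of 1 member are not reported or drawn here, although it is in the counts. Relative depth came from the most common ratio of values between 0.001 and 0.1 FPKM, within 0.004 on the natural log scale, taken as equal read numbers. That step was tested on simulated data. Symbols were matched to RefSeq of GRCm38.p6, where 36 of 38 members were found, 9 of them overlapping another gene. The rule for naming genes allowed any member and, in each list, its highest genes, its defining markers and exceptions. Members and lists were chosen with earlier results of these data known, and the motifs, the printed promoters and Cldn25 and Cldn26 as ambiguous after values were seen. Other settings tried were cut-offs of 0.5 and 5 FPKM, 0.1 as pseudocount, no filter on low values, upper quartile scaling, another background and each replicate left out.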

Additional observations from a re-analysis of the deposited data

How the results depend on the processing

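Upper quartile scaling left 17 members expressed and 14 lower in replicate 1. At 5 FPKM, 11 members were expressed (35.7% of all genes), and at 0.5 FPKM 21 were (54.4%). Without 1 replicate the number expressed lay between 17 and 18. Of the 11 members averaging 5 FPKM or more, 9 were lowest in replicate 1 (34.7% of such genes), and their median deviation was -0.37. Without a filter on low values 20 of 34 were lowest in replicate 1 (34.4% of such genes), and the median deviation was -0.07. By the rule of 0.8 times the lower of the others, 8 of 19 were low. Without replicate 2 or replicate 3, replicate 1 was below the remaining one in 15 and 16 members, beside 49.5% and 50.7% of genes, and the median deviation lay between -0.14 and -0.11. The Cldn6 share lay between 34.7% and 38.0% without 1 replicate, that of Cldn7 between 15.9% and 16.7%, and that of Cldn12 between 7.84% and 8.56%. Without Cldn25 and Cldn26 these shares were 51.2%, 23.4% and 11.9%, through the smaller sum by construction. Of 34 changes of threshold in the gene lists, 25 kept the count within 1.5 times. No paired analysis was possible because all samples share 1 condition. Read totals are unknown, so no counting interval is given, and order among members below 0.3 FPKM is not resolved.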
